A study of Mus musculus with 6 samples.

Results

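The genes described are 10 genes of the MHC class I pathway, chosen by name: H2-K1, H2-D1, B2m, Tap1, Tap2, Tapbp, Calr, Pdia3, Erap1 and Nlrc5. They are 10 of the 27480 genes in the deposited table, and all 10 passed the filter on low counts that left 16592 genes for testing. The cells were OT1 CD8+ T cells, killer T cells of transgenic mice whose receptor recognises an ovalbumin (OVA) peptide held by the class I molecule H2-K of the b haplotype. Cells with an empty overexpression vector gave 3 libraries (vector 1 to 3), and cells overexpressing PTMA, prothymosin alpha, gave the other 3 (PTMA 1 to 3). Per-library values are listed in that order, replicate 1 to 3. All 6 libraries share the WT genotype given in the labels and 48 h of stimulation with OVA peptide, so no unstimulated state was measured. The labels used here give neither the promoter nor the species of the construct's insert, nor whether replicates came from separate mice or cultures, so the p-values rest on library-to-library spread that could be technical.

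Class I molecules carry peptides of the cell's own proteins to its surface, where CD8+ T cells read them; T cells display them too. A heavy chain (H2-K1, H2-D1) pairs with the light chain beta-2 microglobulin (B2m), while the transporter Tap1/Tap2 pumps peptides into the endoplasmic reticulum (ER). There the peptide loading complex of tapasin (Tapbp), calreticulin (Calr) and the disulfide isomerase ERp57 (Pdia3) helps fit a peptide that the aminopeptidase Erap1 may have trimmed. Nlrc5 is the transactivator that drives transcription of class I genes, recruited by factors bound to paired boxes in their promoters.

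The promoters of the heavy and light chain genes are shown because Nlrc5 is known to act through boxes in such promoters. Nlrc5 was also the gene that varied most among the 10. Of these boxes only TGACG and ATTGG were searched, so the marks do not cover every box that Nlrc5 may need. The sequences are RefSeq windows on GRCm38.p6, the build of the table's coordinates, and run from 250 bases before to 50 bases after the first listed start of each gene; 8 of the 10 genes had one, all except Tap2 and Nlrc5. Each is printed 5′ to 3′ on the gene's strand. Capitals mark, within the stretch shown, an NF-kappaB-type motif (GGGNNNNNCC on either strand, merged where matches overlap), an interferon response motif (GAAANNGAAA), TGACG, the core of the box that CREB-type factors bind, and ATTGG, the box that NF-Y binds. Among these stretches only B2m holds the exact pattern GAAANNGAAA. Other forms of an interferon response motif were not searched, so H2-K1 and H2-D1 may hold one in lower case. The H2-K1 stretch lies at chr17:34000351-34000466 (minus strand), the H2-D1 stretch at chr17:35262915-35263030 (plus strand) and the B2m stretch at chr2:122147540-122147646 (plus strand). The H2-D1 window is placed on RefSeq's start, which lies downstream of the gene start given in the deposited table, so this stretch falls inside the table's H2-D1 span.
H2-K1: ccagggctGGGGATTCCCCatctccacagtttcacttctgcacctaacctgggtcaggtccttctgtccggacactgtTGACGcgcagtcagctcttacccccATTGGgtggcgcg
H2-D1: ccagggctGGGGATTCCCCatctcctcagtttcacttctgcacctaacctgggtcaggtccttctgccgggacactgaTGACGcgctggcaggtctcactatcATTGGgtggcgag
B2m: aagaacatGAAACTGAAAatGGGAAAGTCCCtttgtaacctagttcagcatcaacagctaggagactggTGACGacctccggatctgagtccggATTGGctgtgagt

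The H2-K1 and H2-D1 stretches are of equal length and have 104 of 116 bases (89.7%) in common. In all 3 promoters TGACG and ATTGG stand on the gene's strand with 20 bases between them. That spacing was read off these windows and then searched on both strands: 26 of 27025 promoters (0.0962%) hold it, among them H2-K1, H2-D1, B2m and the class I-like gene H2-M3. The single motifs are common. GGGNNNNNCC was in 50.4% of all promoters and in 6 of the 8, TGACG in 21.0% and in 5 of the 8, and ATTGG in 37.9% and in 7 of the 8. GAAANNGAAA was in 3.49% of all promoters and in B2m and Erap1. A match describes letters and not a bound site.

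None of the 10 genes changed between the PTMA and vector libraries (edgeR quasi-likelihood test, Benjamini-Hochberg over 16592 genes, threshold 0.05; adjusted p from 0.951 to 0.996). The share called over all genes was 0.0121%, and at an unadjusted p under 0.05 it was 4.65%, where 0 of the 10 passed with edgeR. DESeq2 also called 0 of the 10 after adjustment, against 0.253% of all genes, and had 1, Calr, at an unadjusted p under 0.05, against 5.48%. With limma on log2(FPKM + 1) 0 of the 10 were called, against 0.00912%, and 1, again Calr, was at an unadjusted p under 0.05, against 4.03%. Of the 10, 8 had positive log2 fold changes (PTMA minus vector) with a median of 0.036, against 46.8% positive and a median of -0.01 over all genes tested. The groups did not overlap for Calr alone, 1 of 10, where 10.8% of all genes tested did not overlap (5.39% with PTMA higher, 5.38% with PTMA lower).

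The libraries held 54989408 to 66767589 counts, and the 10 genes were all counted far above the filter in each. The mouse Ptma row, which counts the construct only if its insert resembles the mouse gene, stood at 926 ± 193 CPM with the vector (library-scaled counts after TMM; SD, n = 3) and at 1257 ± 98.0 CPM with PTMA (SD, n = 3), without overlap but not past the test (edgeR adjusted p = 0.951). The 6 CD8 T cell markers, such as Cd3e and Cd8a, summed to 3535 to 3912 CPM with the vector and 3586 to 3861 CPM with PTMA, with none at 0. Markers of other cells that also make class I were low but not all level. The B cell markers Ms4a1, Cd79a and Cd79b summed to 3.86 to 4.95 CPM with the vector and 5.37 to 6.66 CPM with PTMA. Most of that was Cd79b, at 209 to 231 counts with the vector and 327 to 403 with PTMA, whereas Ms4a1 had 17 to 28 counts with the vector and 4 to 10 with PTMA, and Cd79a had 7 to 29 and 15 to 22 counts. The 3 macrophage markers with a row summed to 9.64 to 12.5 and 12.4 to 14.3 CPM, with Csf1r at 0 to 6 counts. Most of the sum was Cd68, at 489 to 709 counts with the vector and 747 to 874 with PTMA. In CPM the groups overlapped for Cd68. The 3 CD4 markers summed to 6.64 to 7.91 and 6.31 to 7.39 CPM. The 11 markers of dendritic and other antigen-presenting cells summed to 388 to 426 CPM and 404 to 449 CPM. Most of that was Ccr7, which T cells express too. Of the class II genes, Ciita and H2-Aa were at 0 to 54 counts, Cd74 had 896 to 1292 counts with the vector and 1379 to 1513 with PTMA, and H2-Ab1 had 1459 to 1967 and 1999 to 2284 counts. The dendritic chemokine Ccl22 had 44 to 117 counts with the vector and 385 to 550 with PTMA, and the actin-bundling gene Fscn1 had 5 to 21 and 98 to 119. Itgax and Zbtb46 had negative log2 fold changes, -0.30 and -0.53, with overlap of the groups. None of the markers tested passed (edgeR adjusted p at least 0.199). The part of such cells in the values of the 10 genes was not tested, and in bulk RNA fewer cells of a type and less RNA per cell cannot be told apart. Vector 3 stood apart from its group: between libraries of the same group the chi-square per gene was 53.7 and 85.4 for vector 3 against vector 1 and 2, and 17.8 to 32.1 for the other pairs. Results are therefore also given without vector 3.

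Compared per gene length in FPKM (fragments per unit of gene length and sequencing depth, as deposited), B2m was the most abundant of the 10, at 2235 ± 128 FPKM (SD over the 6 libraries), and ranked number 9 by mean FPKM of all 27480 rows. H2-D1 followed at 1621 ± 106 and H2-K1 at 960.4 ± 53.7 FPKM, numbers 17 and 30 of all rows. The loading factors came next, Pdia3 at 207 ± 21.9, Tapbp at 164 ± 10.4 and Calr at 114 ± 6.52 FPKM. Tap2 stood at 108 ± 5.67 and Tap1 at 74.1 ± 3.87 FPKM, although the transporter takes them in equal number. Erap1 had 27.4 ± 1.16 FPKM and the regulator Nlrc5 17.6 ± 3.80 FPKM. Ranges over the 6 libraries did not overlap between neighbours in this order, except for Calr and Tap2, which overlapped and kept this order in 5 of 6 libraries. FPKM between genes depends on the lengths and read assignment used by the authors.

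**Figure D1:**
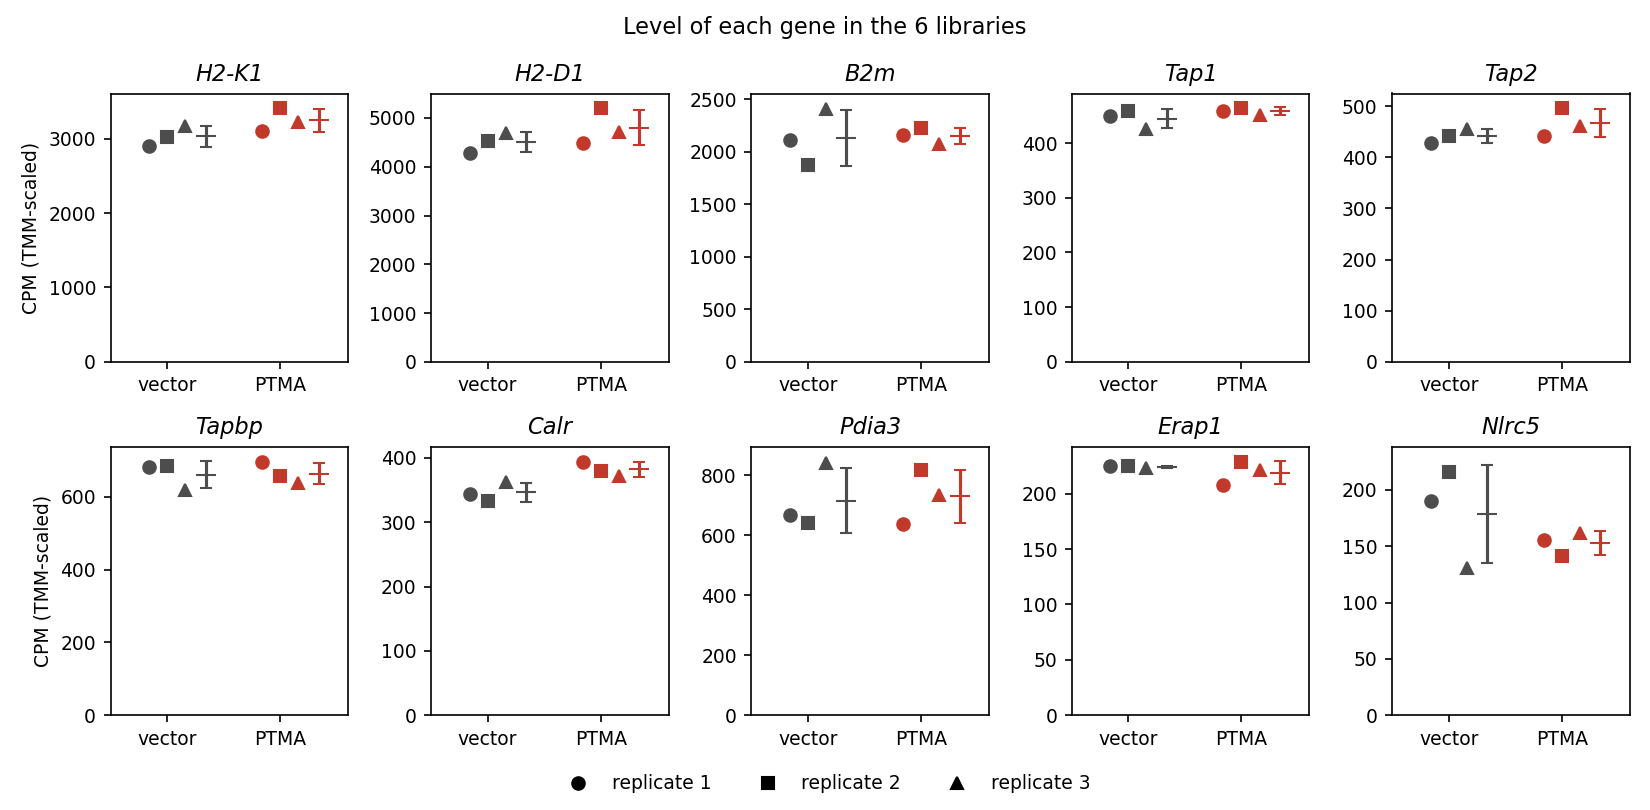
TMM-scaled CPM of each gene (vertical axis from 0) in the vector (grey) and PTMA (red) libraries, with marker shape for the replicate number and the mean ± SD beside the points. The groups overlap in 9 of the 10 panels; in Calr the PTMA libraries, at 371 to 394 CPM, lie above the vector libraries, at 333 to 363 CPM.

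The classical heavy chains differed little between groups. H2-K1 (ENSMUSG00000061232, chromosome 17, 33996017 to 34000347, minus strand), which encodes the molecule that shows the OVA peptide to the OT1 receptor, had 2896, 3021 and 3173 CPM with the vector and 3102, 3409 and 3230 CPM with PTMA. PTMA 1 fell below vector 3, so the groups overlapped. Its log2 fold change was 0.10 (SE 0.06, 95% interval -0.041 to 0.24; edgeR adjusted p = 0.951), a 1.07-fold ratio of the means. H2-D1 (ENSMUSG00000073411, chromosome 17, 35262730 to 35267499, plus strand), the other classical heavy chain gene of the list, had 4285, 4525 and 4698 CPM with the vector and 4495, 5194 and 4708 CPM with PTMA. PTMA 2 was the highest library for both genes and vector 1 the lowest. The log2 fold change of H2-D1 was 0.092 (SE 0.07, 95% interval -0.065 to 0.25; edgeR adjusted p = 0.951).

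The ratio of H2-K1 to H2-D1 in FPKM was 0.593, 0.586 and 0.593 with the vector and 0.606, 0.576 and 0.602 with PTMA. The ratio thus stayed within 0.576 to 0.606 while each gene varied by 1.18-fold and 1.21-fold over the libraries, and the groups overlapped (two-sided exact permutation test, p = 0.8, where 3 against 3 cannot go below 0.1). Heavy chain genes resemble each other: 8.79% of the 50-base words of the longest coding H2-K1 transcript and 14.3% of those of H2-D1 occur in transcripts of another gene (GENCODE M21), chiefly of the H2-D, H2-Q and H2-T genes. How the authors assigned such reads is not given in the sources used here, so the split between these genes is uncertain. For each of the other 8 genes the share was lower.

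B2m (ENSMUSG00000060802, chromosome 2, 122147686 to 122153083, plus strand) had 2108, 1871 and 2405 CPM with the vector and 2163, 2225 and 2073 CPM with PTMA. The vector libraries held both the lowest and the highest value, and the PTMA libraries lay between them. The log2 fold change was 0.017 (SE 0.09, 95% interval -0.18 to 0.22; edgeR adjusted p = 0.986). The FPKM ratio of B2m to the sum of H2-K1 and H2-D1 was 0.926, 0.782 and 0.964 with the vector and 0.899, 0.815 and 0.824 with PTMA. Light and heavy chain RNA therefore did not keep a fixed ratio between libraries, and the groups overlapped (two-sided exact permutation test, p = 0.6).

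The transporter genes lie on the same strand of chromosome 17, with Psmb8 between them. Tap1 (ENSMUSG00000037321, 34187553 to 34197225, plus strand) was among the steadiest of the 10, with 449, 459 and 425 CPM with the vector and 459, 465 and 451 CPM with PTMA. Vector 3 was the lowest library. Tap2 (ENSMUSG00000024339, 34203527 to 34216321, plus strand) had 429, 442 and 456 CPM with the vector and 442, 496 and 462 CPM with PTMA, with PTMA 2 the highest as for the heavy chains. The log2 fold changes were 0.045 (SE 0.06, 95% interval -0.091 to 0.18) for Tap1 and 0.078 (SE 0.07, 95% interval -0.071 to 0.23) for Tap2 (edgeR adjusted p = 0.956 and 0.952). The FPKM ratio of Tap1 to Tap2 was 0.723, 0.717 and 0.644 with the vector and 0.717, 0.646 and 0.674 with PTMA (two-sided exact permutation test, p = 0.7). It was low in vector 3 and PTMA 2, in different groups.

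Among the loading factors Calr came nearest to a difference. Calr (ENSMUSG00000003814, chromosome 8, 84841850 to 84846934, minus strand), the lectin chaperone that holds newly made heavy chains, had 344, 333 and 363 CPM with the vector and 394, 380 and 371 CPM with PTMA. Each PTMA library was above each vector library, the nearest pair being PTMA 3 and vector 3. The log2 fold change was 0.14 (SE 0.06, 95% interval -0.0024 to 0.28), a 1.10-fold ratio of the means, with an edgeR p of 0.0532 before and 0.951 after adjustment. Tapbp (ENSMUSG00000024308, chromosome 17, 33915899 to 33926197, plus strand), the bridge between transporter and heavy chain, had 681, 684 and 618 CPM with the vector and 695, 657 and 638 CPM with PTMA. Its log2 fold change was 0.0042 (SE 0.07, 95% interval -0.15 to 0.16; edgeR adjusted p = 0.996).

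Pdia3 (ENSMUSG00000027248, chromosome 2, 121413775 to 121438687, plus strand) varied between libraries of both groups, with 666, 640 and 840.3 CPM with the vector and 638, 816 and 734 CPM with PTMA. The highest library was vector 3 and the lowest PTMA 1. Its log2 fold change was 0.027 (SE 0.12, 95% interval -0.25 to 0.30; edgeR adjusted p = 0.984). Erap1 (ENSMUSG00000021583, chromosome 13, 74639568 to 74693201, plus strand) had 225, 225 and 223 CPM with the vector and 208, 229 and 221 CPM with PTMA, with a log2 fold change of -0.034 (SE 0.06, 95% interval -0.18 to 0.11; edgeR adjusted p = 0.966). The vector libraries lay within 2 CPM of each other and inside the range of the PTMA libraries.

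Nlrc5 (ENSMUSG00000074151, chromosome 8, 94434356 to 94527272, plus strand) had 190, 216 and 131 CPM with the vector and 156, 141 and 161 CPM with PTMA. Vector 2 was the highest library of all 6 and vector 3 the lowest, and the PTMA libraries lay between vector 3 and vector 1. The log2 fold change was -0.23 (SE 0.16, 95% interval -0.59 to 0.13; edgeR adjusted p = 0.951), a ratio of means of 0.854. Its value hung on single vector libraries: without vector 3 it was -0.41 (edgeR adjusted p = 0.189) and without vector 2 it was -0.063 (edgeR adjusted p = 0.998). Nlrc5 was lowest in vector 3. H2-K1, H2-D1 and B2m, whose promoters hold TGACG and ATTGG 20 bases apart, were at their highest CPM of the vector group there. Calr and Pdia3, whose windows lack that spacing, were also highest of the vector group in vector 3, as was Tap2, which had no window. Tap1, Tapbp and Erap1, whose windows lack that spacing too, were lowest of the vector group in vector 3, at 425, 618 and 223 CPM. Erap1 was nearly level, at 225, 225 and 223 CPM in vector 1 to 3. The Pdia3 and Tap1 windows do hold both TGACG and ATTGG, but not in that arrangement. In FPKM B2m was highest of the vector group in vector 3. H2-K1 and H2-D1 were highest in vector 2, at 967 and 1650 FPKM against 937 and 1580 FPKM in vector 3.

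**Figure D2:**
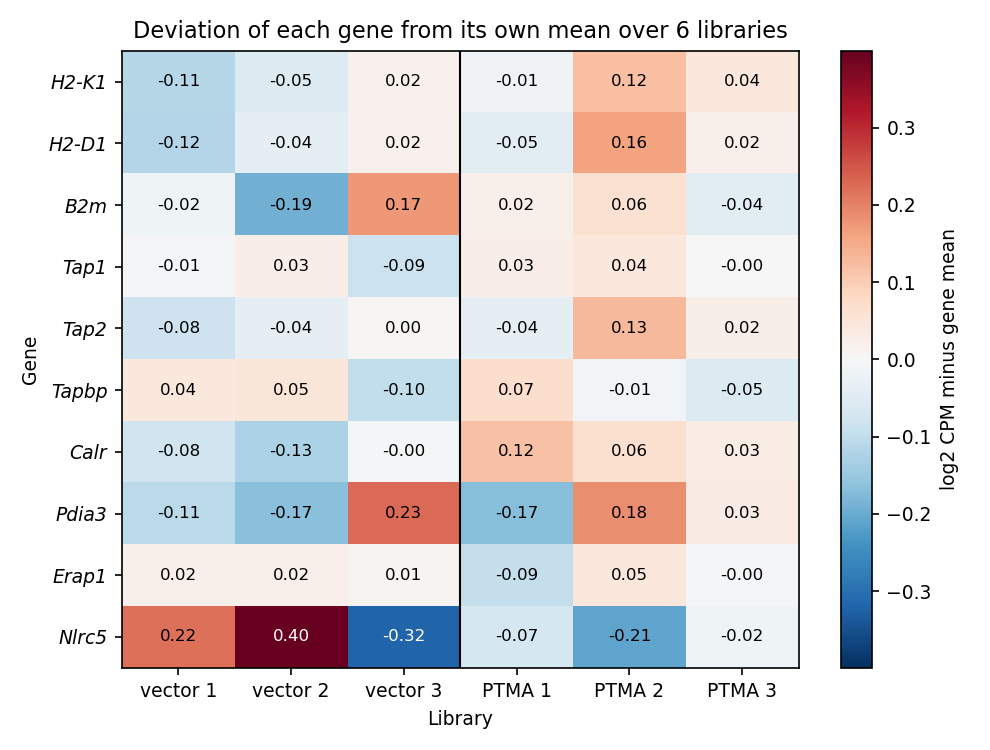
Log2 CPM of each gene minus its own mean over the 6 libraries (colour and printed value), with a line between the vector libraries on the left and the PTMA libraries on the right. Nlrc5 runs from 0.40 in vector 2 to -0.32 in vector 3, while Pdia3 and B2m stand at 0.23 and 0.17 in vector 3.

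Measured as the highest over the lowest library, the spread was 1.65-fold for Nlrc5, 1.32-fold for Pdia3 and 1.29-fold for B2m. It was 1.09-fold for Tap1, 1.10-fold for Erap1 and 1.12-fold for Tapbp. Over the 2364 genes with a mean of at least 100 CPM the median was 1.20-fold, with quartiles of 1.14 and 1.28, and 98.4% of them spread less than Nlrc5. PTMA 2 was above the gene's own mean for 8 of the 10 genes and vector 1 for 3. The 10 genes together took 1.25%, 1.27% and 1.31% of all counts with the vector and 1.26%, 1.37% and 1.31% with PTMA (two-sided exact permutation test, p = 0.5).

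Of 8842 other genes with a mean of at least 10 CPM, the nearest to Nlrc5 in centred log2 CPM over the 6 libraries was Oas3, an interferon-induced oligoadenylate synthetase, at a root mean square difference of 0.014. Oas3 had 97.9, 109 and 66.2 CPM with the vector and 80.9, 72.1 and 83.5 CPM with PTMA, so it was highest in vector 2 and lowest in vector 3, as Nlrc5 was. Nup210, a nuclear pore protein, and Mief1, a mitochondrial fission factor, followed at 0.030 each. Nearest to H2-K1 were Chchd2 at 0.012, Sephs2 at 0.017 and Eif1ad at 0.018. The 6 points are shared by all genes, and some genes lie close to any profile among so many.

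**Figure D3:**
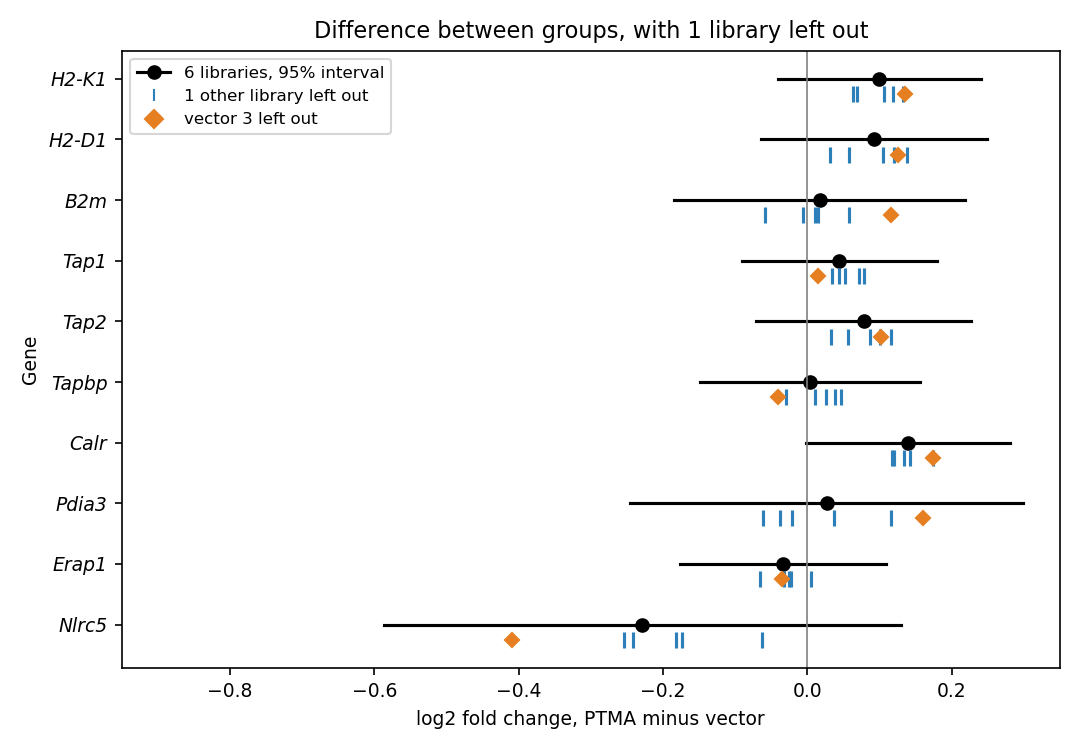
Log2 fold change (PTMA minus vector, horizontal axis) of each gene with its 95% interval from edgeR over 6 libraries (black), and the value with vector 3 left out (orange) or another library left out (blue). All 10 intervals include 0, and leaving out vector 3 moves Nlrc5 from -0.23 to -0.41.

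Without vector 3 the log2 fold changes were 0.14 for H2-K1, 0.13 for H2-D1, 0.12 for B2m, 0.015 for Tap1 and 0.10 for Tap2. They were 0.17 for Calr, -0.041 for Tapbp, 0.16 for Pdia3 and -0.035 for Erap1. No gene of the 10 passed then either (edgeR adjusted p from 0.189 for Nlrc5 to 0.931 for Tap1). At an unadjusted p under 0.05 there were 3 of the 10, H2-K1, Calr and Nlrc5, where 15.4% of the 17287 genes tested without vector 3 were under it.

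The wider pathway was read from 5 lists, of which 66 of 68 genes had a row and were tested. None of the 66 changed (edgeR, adjusted p at least 0.951; 0 also with DESeq2 and with limma on log2(FPKM + 1)). With edgeR 1 of the 66 had an unadjusted p under 0.05, where 4.65% of all genes tested did. The groups did not overlap for 8 of the 66, against 10.8% of all genes tested. Of the 8, 6 were higher in the PTMA libraries, where 5.39% of all genes tested were higher and 5.38% lower without overlap. The 2 lower ones were Canx of the ER chaperones and Jak2 of the regulators. Their log2 fold changes were -0.092 and -0.11 (edgeR adjusted p = 0.951 each). Without vector 3, 13 of the 66 (19.7%) were at an unadjusted edgeR p under 0.05, against 15.4% of all genes tested then, and 0 passed.

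The proteasome list covers the standard and immunoproteasome catalytic subunits that cut the peptides, the activators that open the proteasome, and the assembly chaperone Pomp. All 11 had positive log2 fold changes, 0.035 to 0.15, with a median of 0.079. Psmb5, a catalytic subunit of the standard proteasome, had the smallest p-value, with 260, 274 and 259 CPM with the vector and 301, 296 and 285 CPM with PTMA (log2 fold change 0.15, SE 0.06; edgeR adjusted p = 0.951). The PTMA libraries were all above the vector libraries. Psmb8, the immunoproteasome subunit encoded between Tap1 and Tap2, had 1051, 1132 and 1218 CPM with the vector and 1241, 1302 and 1177 CPM with PTMA, and the groups overlapped.

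Of the other class I and class I-like genes 6 of 12 were positive, with a median of 0.0037. H2-M3, which presents formylated peptides, had the smallest p-value there, with 60.0, 61.7 and 66.4 CPM with the vector and 67.3, 69.6 and 73.4 CPM with PTMA (log2 fold change 0.16, SE 0.08; edgeR adjusted p = 0.951). The PTMA libraries were all above the vector libraries, by under 1 CPM at the nearest pair. Of the ER chaperones 7 of 13 were positive, with a median of 0.014. Among these P4hb, a disulfide isomerase, had a log2 fold change of 0.12 (SE 0.07; edgeR adjusted p = 0.951), with PTMA 1 at 349 CPM and the other 5 libraries at 291 to 309 CPM.

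Of the cytosolic peptidases 6 of 8 were positive, with a median of 0.074. Prep, a prolyl peptidase, led them at 0.13 (SE 0.08; edgeR adjusted p = 0.951), with 91.4 to 98.9 CPM for the vector and 99.4 to 114 CPM for PTMA. The regulators of class I transcription had 9 of 22 positive, with a median of -0.035. Nfya, a subunit of the NF-Y factor that binds ATTGG boxes, stood at 8.17 ± 1.43 CPM with the vector and 10.0 ± 1.40 CPM with PTMA (SD, n = 3 each), with overlap and a log2 fold change of 0.29 (SE 0.17; edgeR adjusted p = 0.951). Irf1, an interferon-response factor that drives class I genes, differed little, at 111 to 113 CPM with the vector and 114 to 117 CPM with PTMA. The PTMA libraries were all above the vector libraries, with a log2 fold change of 0.041 (SE 0.06, edgeR adjusted p = 0.956).

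**Figure D4:**
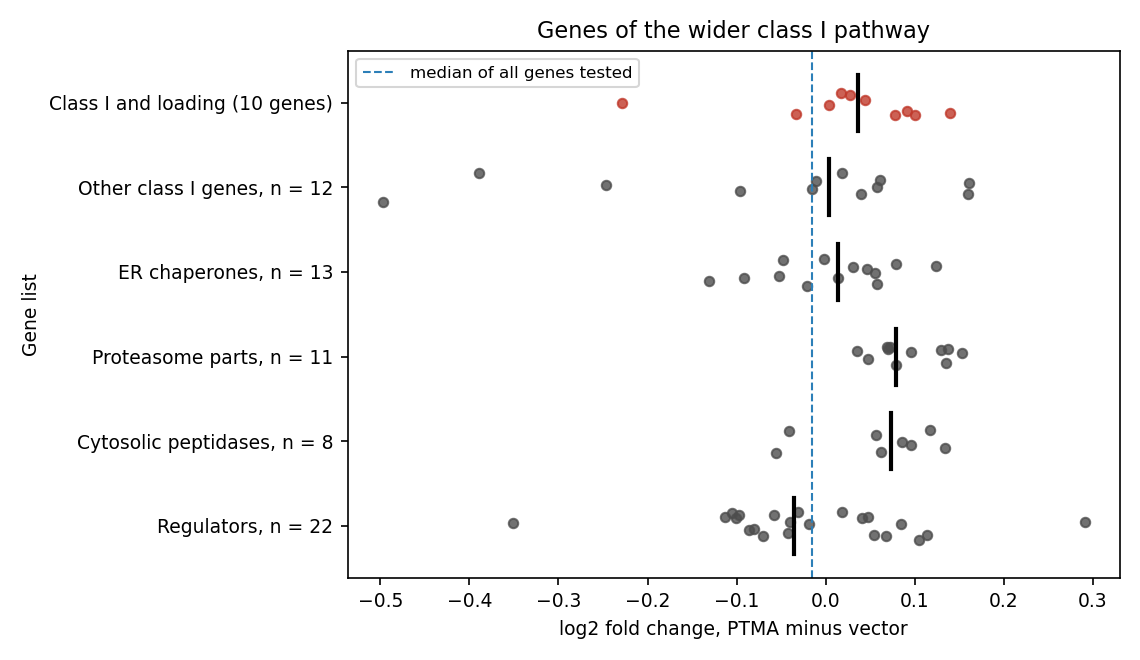
Log2 fold change (PTMA minus vector, horizontal axis) of each tested gene, 1 point per gene, in the 10 class I and loading genes (red) and in the 5 wider lists (grey), with the list median as a black bar and the median of all genes tested as a dashed line at -0.01. The proteasome parts lie at 0.035 to 0.15, and no point passed the test.

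Some counts can hold reads of another gene, since strand use in counting is not given in the sources used here. In GENCODE M21 B2m overlaps Patl2, Tap1 overlaps Psmb9, Pdia3 overlaps Catsper2 and Erap1 overlaps Cast, each on the other strand. Tapbp overlaps Zbtb22 on its own strand, and Tap2 and Nlrc5 overlap noncoding genes.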

How the data were processed

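RNA of 6 libraries was sequenced in pairs after poly(A) selection, per the labels' protocols, whose text names an adipose source that does not match CD8+ T cells. The authors deposited whole-number counts per gene, with no normalization, per the file headers. Beside them the authors deposited FPKM for each gene and library. Bowtie 0.12.2, HISAT2 2.0, StringTie 1.3.0 and an mm8 build are listed, without their roles, per the submitters' processing notes. Gene starts of all 10 genes match GENCODE M21 on GRCm38, so coordinates are given on that build.

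Groups and replicate numbers come from the sample titles. The test was edgeR 4.0.16 (R 4.3.3): TMM scaling, filterByExpr with a minimum count of 10, a quasi-likelihood test of group, with no other term, over all 6 libraries, and Benjamini-Hochberg adjustment at 0.05. Log2 CPM for likeness used a prior count of 2. FPKM ratios within a library were compared by exact permutation. Total counts were 54989408 to 66767589 per library, and counts are of reads without molecular identifiers. Libraries of a group differed by more than sampling noise, so none was counted as a duplicate. The procedure was tested on simulated data.

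The genes, lists and tests were chosen with earlier results of these data known; the promoter motifs were chosen after the sequences were seen. Named genes are the 10, the member of each wider list with the smallest p-value where none passed, and the 3 genes most like H2-K1 and Nlrc5. Psmb8, Irf1, Canx, Jak2, Ptma and the marker genes were added after their values were seen. The alternatives were other scalings, no filter, DESeq2 1.42.0, a replicate block, leaving out each library, and limma 3.58.1 on log2(FPKM + 1) or log2(FPKM + 0.1). A further listed marker gene is not reported here.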

Additional observations from a re-analysis of the deposited data

How the results depend on the processing

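None of the 10 genes passed the threshold in any of the 14 alternatives, and none of the 66 wider pathway genes did where tested. Limma restricted to a mean FPKM of at least 1 did not test Hfe, Fcgrt and Ifngr2. The 10 genes kept their direction in 130 of 140 fits. Scaling libraries to the same total turned B2m to -0.0082 and Tapbp to -0.025; the cause was not tested. Leaving out each library in turn gave log2 fold changes of 0.064 to 0.14 for H2-K1, 0.032 to 0.14 for H2-D1, -0.058 to 0.12 for B2m, 0.015 to 0.078 for Tap1, 0.032 to 0.12 for Tap2, -0.041 to 0.047 for Tapbp, 0.12 to 0.17 for Calr, -0.061 to 0.16 for Pdia3, -0.065 to 0.0048 for Erap1 and -0.41 to -0.063 for Nlrc5. The log2 difference in FPKM ratio was then -0.0040 to 0.032 for H2-K1 to H2-D1 (0.0095 with all libraries), -0.16 to -0.0097 for B2m to both heavy chains (-0.070) and -0.086 to 0.0031 for Tap1 to Tap2 (-0.032). Over all genes, 2 changed; the number was 0 to 4 with a library left out, 0 with no filter on low counts, 1 with limma on log2(FPKM + 1) or log2(FPKM + 0.1), 0 with limma on log2(FPKM + 1) without a filter, and 42 with DESeq2. Deviations from the group means correlated at -0.12, -0.16 and -0.12 between libraries 1, 2 and 3 of both groups, so the numbers give no sign of pairing; a replicate block gave 0 genes over all, 0 of the 10, and values of -0.20 for Nlrc5 and 0.14 for Calr. With 3 libraries a group, the intervals printed with each gene are not adjusted for the number of genes tested. An interval without 0 was therefore not enough for a call. The log2 fold change of Ptma had an interval of 0.14 to 0.74 and that of Psmb5 0.015 to 0.29. Both had an edgeR adjusted p of 0.951. A change had to be larger, for its spread, than the intervals show to pass the threshold, so smaller changes could go uncalled.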
